A study of Mus musculus with 26 samples.

Results

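Transcript levels of mouse embryonic stem cells (mESCs) that overexpressed FH-Prdm14 were set against those of mESCs in which FH-Mtgr1 had been put back, both in serum+LIF. FH is a FLAG-HA tag, and serum+LIF is fetal serum with the cytokine LIF. The FH-Prdm14 group held 2 libraries, from the Prdm14-/- clones G6 and F10 after reconstitution with FH-Prdm14. The FH-Mtgr1 group held 3 libraries, from the Mtgr1-/- clones A3, C1 and C3 after reconstitution with FH-Mtgr1. These 5 libraries are 5 of the 15 RNA-seq libraries and 26 samples in the series. All lines derive from a mESC line that carries a GFP reporter of Stella (Dppa3). The Prdm14 deletions were made with CRISPR-Cas9 in the second exon of the gene and the Mtgr1 deletions in the third exon. The cells were kept without feeders in 2i+LIF, in which a MEK inhibitor and a GSK3 inhibitor replace serum, and were then grown in serum+LIF for 5 days. By its label, each of the 5 libraries comes from a separate clone, and the labels name no separate cultures. The promoter of the transgenes is not given in the sources used here. The p-values measure the spread between libraries of the same condition, estimated jointly over all 15 RNA-seq libraries. Clones recur between conditions, which the model does not take into account. The groups differ in the deleted gene, in the transgene and in the parental clones at the same time, and these cannot be told apart.

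Genes were included when they reached at least 1 RPKM (reads on a gene scaled to its length and to the reads on all genes of the library) in at least 2 of the 5 libraries. Of the 24015 genes listed, 12757 met this rule. Differences are given as FH-Prdm14 minus FH-Mtgr1 on the log2(RPKM + 0.5) scale, which understates the change of genes at low levels, with the standard error (SE) of the limma model. A gene is called higher or lower where its Benjamini-Hochberg adjusted p over all genes tested is below 0.05.

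Prdm14 is a DNA-binding PR domain protein of the preimplantation embryo, of primordial germ cells and of pluripotent stem cells. It is best known for holding back fibroblast growth factor signalling and de novo DNA methylation. Mtgr1, the product of Cbfa2t2, is a corepressor of the ETO family that does not read DNA sequence itself and binds the SET region of Prdm14. mESCs in serum are a mixture of naive cells and cells on their way to the primed state of the later epiblast, and they hold rare cells with transcripts of the two-cell embryo, such as those of the Zscan4 cluster.

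The 5 libraries had between 12729580 and 21218414 reads on genes, and no pair agreed within sampling noise. Pou5f1, Sox2, Nanog, Zfp42, Sall4 and Utf1, markers of mESCs, were present in all 5. The largest differences downward were those of 3 noncoding RNAs. The summed level of Rmrp, Rpph1 and Rprl3 was 21.4 and 25 RPKM in FH-Prdm14 and 2671, 648 and 2710.2 RPKM in FH-Mtgr1. Rmrp and Rpph1 are the RNA parts of the RNase MRP and RNase P enzymes and are short transcripts without a poly(A) tail. In the other libraries this sum ranged from 22.6 to 8169 RPKM, and it differed between libraries of the same condition. Of 51 replication-type histone genes tested, whose transcripts also lack a poly(A) tail in cycling cells, 16 were lower and 0 higher, with a median log2 difference of -1.86. In the fit with the covariate described next, 0 were lower and 26 higher, with a median of 1.57. The levels of these RNAs therefore moved with the comparison, and their part in the other differences was examined only by adding the log2 sum of the 3 RNAs to the model as a covariate. Its slope is set by libraries of the same condition that differ in the sum. Values of this fit are given beside the results as the covariate fit. Across 11516 genes the log2 difference had a Spearman rho of 0.29 with transcript GC content, and of -0.02 in the covariate fit. The Y-linked gene Eif2s3y was at 3.08 and 3.13 RPKM in FH-Prdm14 and at 17.5, 0.08 and 17.1 RPKM in FH-Mtgr1 A3, C1 and C3. In the parental Mtgr1-/- libraries it was at 0.0274, 18.3 and 5.69 RPKM in A3, C1 and C3. The parental Prdm14-/- libraries had 0.732 and 9.7 RPKM in G6 and F10. Its level thus did not follow the clone names from the parental to the reconstituted libraries, and the cause was not tested.

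**Figure D1:**
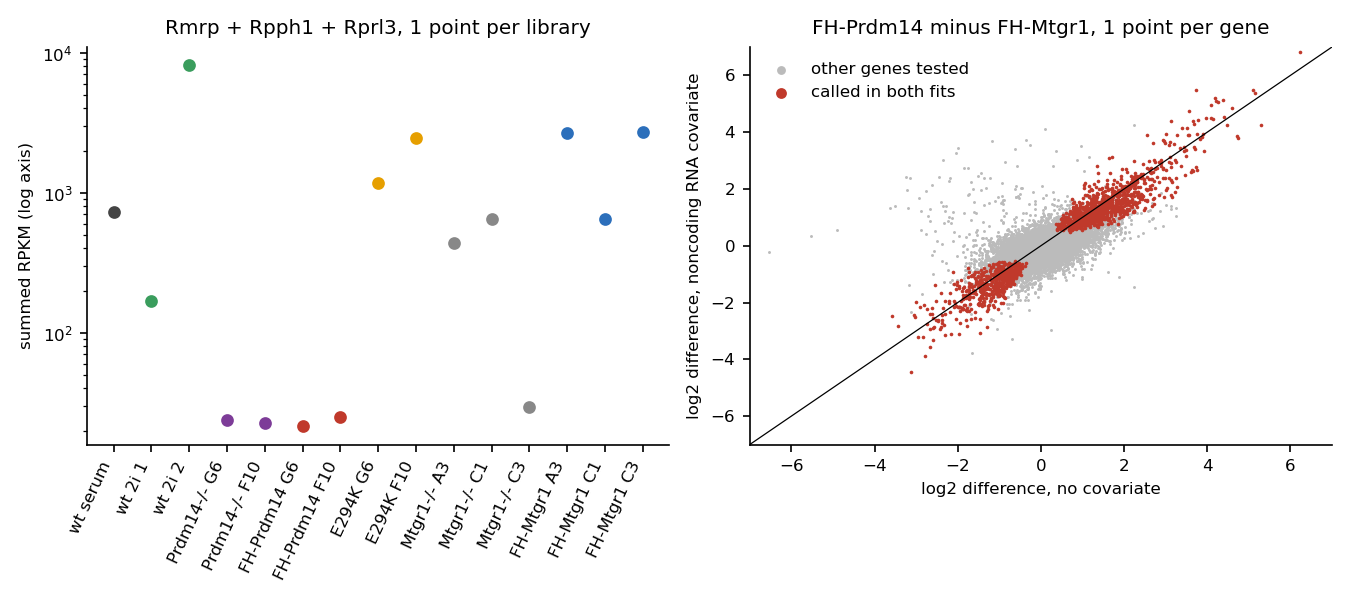
Left, summed RPKM of the noncoding RNAs Rmrp, Rpph1 and Rprl3 on a log axis, with 1 point for each of the 15 libraries. Both FH-Prdm14 libraries lie below 26 RPKM and the 3 FH-Mtgr1 libraries lie at 648 RPKM or above. Right, log2 difference between FH-Prdm14 and FH-Mtgr1 for each of the 12757 genes tested, without (x) and with (y) the covariate. The line marks equal values, and red points are the 1471 genes called in the same direction in both fits.

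Between the groups, 3494 genes were higher in FH-Prdm14 (27.4% of those tested) and 2053 were lower (16.1%), so that 43.5% were called. The differences at or above 2-fold comprised 1518 genes higher (11.9%) and 644 lower (5.05%), and those at or above 4-fold comprised 274 higher (2.15%) and 90 lower (0.705%). The median log2 difference of all genes tested was 0.11, against which the values below should be read, and it was 0.00 after median-of-ratios scaling. Likewise, the counts in gene lists below should be read against the 27.4% higher and 16.1% lower of all genes tested. Of the calls, 63.0% were higher, and 52.6% after that scaling (2900 higher and 2613 lower). The count rests on both FH-Prdm14 libraries: without G6, 1467 genes were higher and 874 lower, and without F10, 1684 and 966. Without FH-Mtgr1 A3, C1 or C3 in turn, 2999, 3035 and 3029 genes were higher and 1656, 1613 and 1807 lower. In the covariate fit 1019 genes were higher (7.99%) and 769 lower (6.03%). Of the 5547 calls, 1471 (26.5%) were calls in the same direction in both fits (7.34% of genes higher and 4.19% lower), as were 1047 of the 2162 calls of at least 2-fold (48.4%) and 290 of the 364 of at least 4-fold (79.7%). The covariate fit gave the opposite sign to 309 calls. The filter on low values passed 551 genes through the FH-Prdm14 libraries alone and 360 through the FH-Mtgr1 libraries alone. Among the other 11846 genes, 3002 were higher and 1840 lower. A gene that passed through the group in which it is high had to differ, so that its call is no support for a difference and is given below by its values and fitted log2 difference alone. Counts of calls in the gene lists include such genes unless stated otherwise. Of the genes described below, this holds for Msln, Prmt8, Tdpoz3, Zscan4a, Wnt5a, Gm2016, Piwil4, Rhox7, Zeb1 and Gsc in FH-Prdm14 and for Wnt8a, Fam111a, Etv1, Rnf43, Pdgfra and Gata3 in FH-Mtgr1.

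The libraries of a group lay close together by comparison. G6 and F10 differed more than 2-fold at 91 genes (0.713%), the FH-Mtgr1 libraries A3 and C1 at 124, and C3 differed from A3 and C1 at 323 and 317. A library of one group differed more than 2-fold from a library of the other at 2259 to 2898 genes (17.7% to 22.7%). For 9230 genes (72.4%) all libraries of one group lay above all libraries of the other, with 43.1% higher and 29.3% lower in FH-Prdm14.

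Prdm14 itself (chr1:13103538-13117244 in mm9) was at 116 and 79.8 RPKM in FH-Prdm14 G6 and F10 and at 2.52, 2.22 and 2.03 RPKM in FH-Mtgr1 A3, C1 and C3. The FH-Mtgr1 libraries lay beside wt cells in serum, at 2.77 RPKM in the single library, and below wt cells in 2i+LIF, at 30.8 and 19.1 RPKM. The fitted log2 difference was 5.14 ± 0.34 (SE), and 5.37 in the covariate fit. The FH-Prdm14 lines carry a Prdm14 transgene, whose reads can count towards this gene. The difference was thus set by the design, and its call is no support. Cbfa2t2 (chr2:154262217-154365092) was at 27.4 and 30.3 RPKM in FH-Prdm14, from its own gene, and at 28.0, 26.7 and 25.5 RPKM in FH-Mtgr1. The groups overlapped, with a log2 difference of 0.11 ± 0.12 (SE, limma adjusted p = 0.489). The Mtgr1-/- libraries still had between 18 and 19.9 RPKM on this gene, below all FH-Mtgr1 libraries. Its RNA was thus lower in the Mtgr1-/- libraries but not lost. The comparison is thus one of cells with high Prdm14 against cells with Prdm14 at the level of wt cells in serum, at like levels of Cbfa2t2 RNA.

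**Figure D2:**
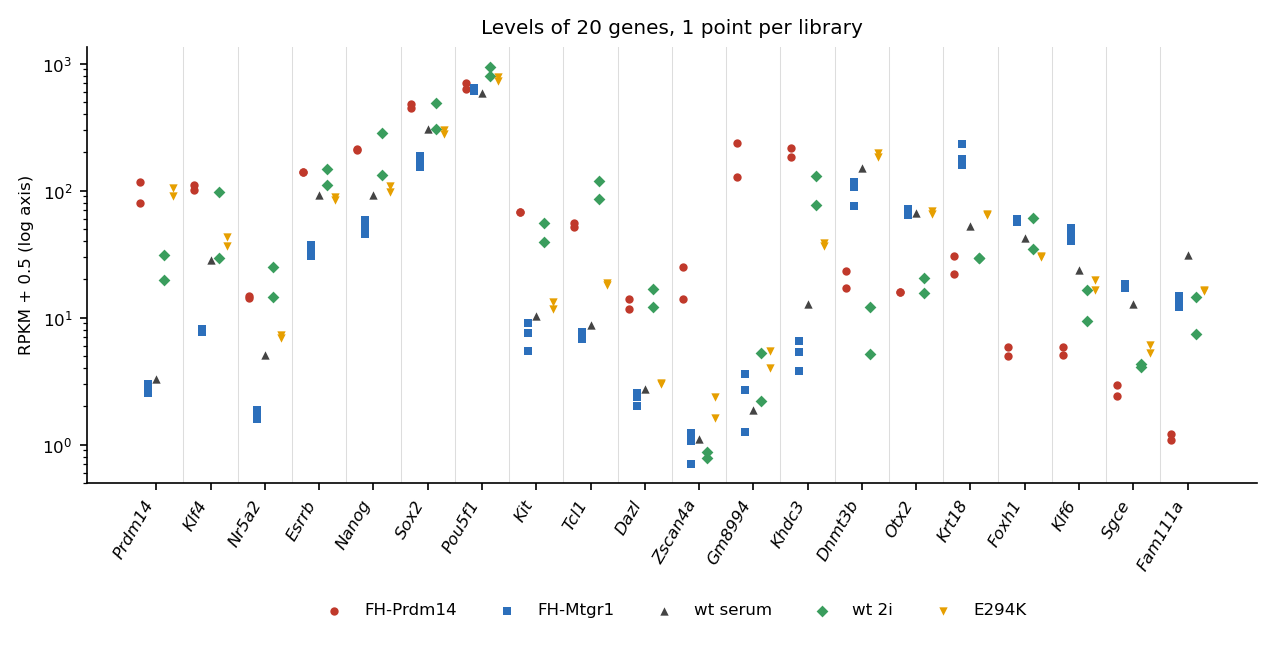
RPKM plus 0.5 on a log axis for 20 genes described in the text, with 1 point per library for FH-Prdm14 (2), FH-Mtgr1 (3), wt serum (1), wt 2i (2) and E294K (2). Prdm14 and the genes from Klf4 to Sox2 and from Kit to Khdc3 lie higher in FH-Prdm14 than in FH-Mtgr1, the genes from Dnmt3b to Fam111a lie lower, and Pou5f1 overlaps or nearly so.

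Transcripts of naive pluripotency were higher throughout in FH-Prdm14. All 18 members of the naive list were tested, 16 were higher and 0 lower, and for all 18 both FH-Prdm14 libraries lay above the 3 FH-Mtgr1 libraries. Among all genes tested, 27.4% were higher, and for 43.1% the FH-Prdm14 libraries lay wholly above. The median log2 difference was 2.04 against 0.11 for all genes, and 1.53 in the covariate fit, in which 12 of the 16 calls held. Leaving out any 1 library gave 13 to 16 higher calls and 0 lower. Klf4 (chr4:55540013-55545347), a zinc finger factor of the LIF pathway, was at 111 and 101 RPKM in FH-Prdm14 and at 7.24, 7.26 and 7.61 RPKM in FH-Mtgr1. This was the widest gap in the list, at 3.76 ± 0.35 on the log2 scale (SE, limma adjusted p = 1.47e-05) and 2.68 in the covariate fit (limma adjusted p = 0.00104). Nr5a2 (chr1:138740161-138857004), a nuclear receptor that can drive Pou5f1, was at 14.3 and 13.7 RPKM against 1.11, 1.38 and 1.1 RPKM, a difference of 3.10 ± 0.32 (SE, limma adjusted p = 3.02e-05) that was 3.11 with the covariate. Tdh, the threonine dehydrogenase that mouse stem cells depend on, was at 285 and 308 RPKM against 30.0, 21.5 and 18.9 RPKM (3.66 ± 0.49, SE, limma adjusted p = 0.000164).

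Esrrb, an orphan nuclear receptor of the naive network, was at 139.9 and 139 RPKM in FH-Prdm14 and at 32.6, 30.1 and 37.1 RPKM in FH-Mtgr1. The wt serum library had 92.2 RPKM and thus lay between the groups. The difference was 2.06 ± 0.17 (SE, limma adjusted p = 8.18e-06). Klf2, which like Klf4 can hold cells in the naive state, was at 273 and 230.5 RPKM against 50.7, 38.7 and 16.6 RPKM (2.95 ± 0.44, SE, limma adjusted p = 0.000323). Its values in FH-Mtgr1 spread over more than those of Klf4, with C3 lowest. Nanog was at 213 and 208 RPKM against 57.9, 52.4 and 45.1 RPKM (2.02 ± 0.24, SE) and Klf5 at 165 and 176 RPKM against 44.3, 42.5 and 57.4 RPKM (1.83 ± 0.18, SE). Zfp42 (Rex1), a marker of the naive state, was at 306 and 332 RPKM against 84.5, 94.7 and 85.5 RPKM (1.85 ± 0.36, SE, limma adjusted p = 0.00177). Tbx3, a T-box factor of naive cells, was at 66.5 and 66.1 RPKM against 15.2, 17.0 and 31.2 RPKM. Its difference of 1.70 ± 0.40 (SE, limma adjusted p = 0.00494) was 0.67 in the covariate fit (limma adjusted p = 0.408) and was then not a call. Dppa3 (Stella) and Tet2 were the members that did not pass, with Dppa3 at 50.6 and 50.3 RPKM against 39.4, 35.9 and 34.4 RPKM (0.46 ± 0.32, SE, limma adjusted p = 0.259). The GFP reporter in these lines holds part of the Stella gene, so that its reads may count towards Dppa3.

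Set against the single wt serum library, which both groups were compared with, the naive list lay on both sides. Its median log2 difference from wt serum was 1.18 for FH-Prdm14 (7 of 18 genes higher, 0 lower, against 7.57% and 6.05% of all genes) and -1.0 for FH-Mtgr1 (0 higher, 2 lower, against 1.14% and 1.9%). Klf4 was at 28.0 RPKM in wt serum, 1.90 below FH-Prdm14 on the log2 scale (limma adjusted p = 0.0222) and 1.86 above FH-Mtgr1, for which the signed value was -1.86 (limma adjusted p = 0.0454). The E294K lines, in which the same Prdm14-/- clones carry a Prdm14 mutant that disrupts the interaction with Mtgr1, had 105 and 89.9 RPKM of Prdm14 in G6 and F10 and also lay above the same FH-Mtgr1 libraries, with 13 of 18 naive genes higher, 0 lower (15.2% and 12.1% of all genes) and a median of 1.35. Klf4 was at 42.3 and 35.9 RPKM in them and Nr5a2 at 6.4 and 6.73 RPKM, between FH-Mtgr1 and FH-Prdm14 in each case. These comparisons share libraries with the one described here and are given as values side by side.

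**Figure D3:**
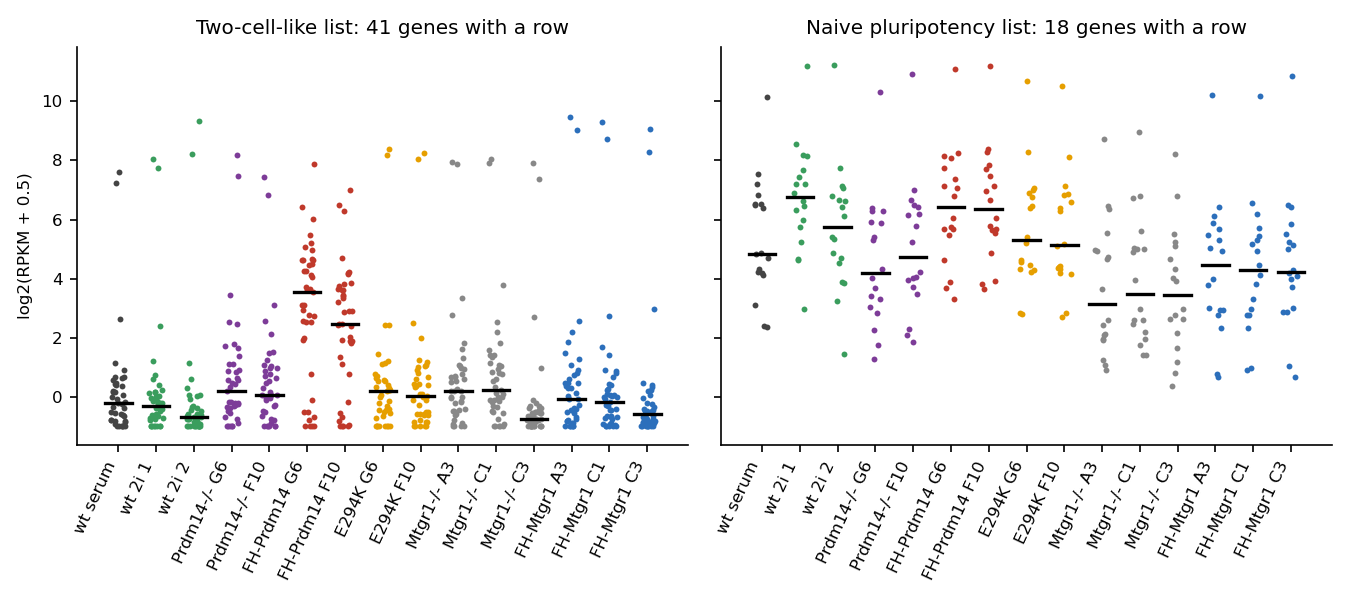
Values on the log2(RPKM + 0.5) scale of all 41 genes of the two-cell-like list (left) and all 18 genes of the naive list (right) that have a row in the table, with 1 point per gene, 1 column per library and a black bar at the median. The two-cell-like median is 3.54 and 2.47 in FH-Prdm14 G6 and F10 and at most 0.23 in each of the other 13 libraries. The naive median is 6.43 and 6.36 in FH-Prdm14 and 4.45, 4.29 and 4.23 in FH-Mtgr1.

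Of the core pluripotency list, which does not separate naive from primed cells, 6 of 11 tested genes were higher and 1 was lower, with a median of 1.11. In the covariate fit the median was 0.42 and 2 of the 6 calls held. Without FH-Prdm14 G6, 4 were higher. Pou5f1 (chr17:35642982-35647721) was at 634 and 709 RPKM in FH-Prdm14 and at 603, 631 and 647 RPKM in FH-Mtgr1, and the groups overlapped (0.10 ± 0.14, SE, limma adjusted p = 0.585). Sox2, its partner on DNA, was at 481 and 449.9 RPKM against 162, 152 and 188 RPKM, with a difference of 1.48 ± 0.19 (SE, limma adjusted p = 0.000137) that was 0.95 with the covariate (limma adjusted p = 0.0148). Sall4 was at 109 and 104 RPKM against 46.8, 50.6 and 49.1 RPKM. Foxd3, a forkhead factor that stem cells need, was at 38.0 and 37.2 RPKM against 4.06, 3.67 and 2.85 RPKM. Its difference of 3.25 ± 0.61 (SE, limma adjusted p = 0.00144) was 1.06 in the covariate fit (limma adjusted p = 0.209). Lin28a, an RNA-binding protein that rises towards the primed state, was the gene that was lower, at 74.9 and 75.5 RPKM against 115, 129 and 101 RPKM (-0.60 ± 0.14, SE, limma adjusted p = 0.00436). Utf1 and Dppa4 did not pass.

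The genes with the largest differences included those of the two-cell-like state, in which single mESCs transiently express transcripts of the two-cell embryo. Of 41 list members with a row in the table, all FH-Prdm14 libraries lay above all FH-Mtgr1 libraries for 31, as they did for 7030 of all 24015 genes listed. Of the 41, 32 passed the filter. Of these 32, 20 passed only because both FH-Prdm14 libraries reached 1 RPKM while no FH-Mtgr1 library did, and such genes had to differ. Of the 12 that passed without this condition, 9 were higher and 2 lower. The fits without G6 or without F10 tested 12 members each and called 9 higher and 2 lower. The 9 members that failed the filter stayed at or below 0.896 RPKM in the 5 libraries. Over the 41 genes the median level was 11.2 RPKM in G6 and 5.03 RPKM in F10, and 0.462, 0.386 and 0.171 RPKM in FH-Mtgr1. In bulk RNA, more cells in this state and more of these RNAs per cell cannot be told apart, nor can fewer cells and less RNA per cell in the other group.

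Gm8994 (chr6:136278539-136280001), a member of a multicopy family of the two-cell embryo, was at 237 and 127 RPKM in FH-Prdm14 and at 3.09, 2.19 and 0.749 RPKM in FH-Mtgr1. Its difference of 6.24 ± 0.70 on the log2 scale (SE, limma adjusted p = 5.31e-05) was the largest upward difference of all genes tested. Zscan4a was at 24.7 and 13.5 RPKM against 0.739, 0.564 and 0.209 RPKM (fitted log2 difference 4.26). Sp110, a nuclear body protein, was at 44.2 and 25.7 RPKM against 1.62, 0.694 and 0.638 RPKM (4.59 ± 0.36, SE, limma adjusted p = 6.03e-06). Dux, the homeobox factor that turns on this gene set, was at 24.1 and 11.7 RPKM against 2.33, 1.33 and 0.815 RPKM (3.19 ± 0.38, SE). Tdpoz3 was at 24.5 and 10.5 RPKM and Usp17lb at 24.1 and 14.1 RPKM, against at most 0.462 and 1.03 RPKM in FH-Mtgr1. G6 was above F10 for 30 of the 32 members tested. Genes such as Tdpoz3, Tdpoz4, Gm2022 and Dux were at the same time those with the largest gap between the FH-Prdm14 libraries, with G6 above F10 by 1.18, 1.15, 1.03 and 1.01 on the log2 scale. In the covariate fit the differences of 28 of the 31 called members were not smaller, but 20 of the 31 passed the filter through FH-Prdm14 alone. Those of the 9 higher members that passed otherwise were not smaller, with 6.84 for Gm8994, 4.85 for Sp110 and 3.59 for Dux. The differences of Gm2016 (3.75 in place of 3.83), Mt1 (-2.08 in place of -2.81) and Mt2 (-1.95 in place of -2.52) were smaller. The 2 members that were lower are metallothioneins, Mt1 at 86.0 and 89.2 RPKM against 703, 627 and 538 RPKM and Mt2 at 64.4 and 78.2 RPKM against 522, 423 and 310.4 RPKM, metal-binding proteins that many cell types express.

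Other libraries did not have these levels. Against the same FH-Mtgr1 libraries, the E294K lines had a median log2 difference of 0.30 over the 32 genes, with 0 higher and 1 lower, and Gm8994 was at 4.95 and 3.52 RPKM in G6 and F10. Against the wt serum library the median was 3.49 for FH-Prdm14 and -0.06 for FH-Mtgr1. Of these 32 genes, 20 passed the filter through FH-Prdm14 alone, so that these medians are partly set by the filter. Over all 41 members with a row, the median level was 0.357 RPKM in wt serum and 0.642 and 0.517 RPKM in E294K G6 and F10. In wt 2i Gm8994 was at 4.77 and 1.69 RPKM. The Zscan4, Usp17l, Tdpoz and Gm8994 families have near-identical copies, so that the split of reads between the copies is uncertain. The promoters of Zscan4b and Zscan4f are shown for this reason, since they illustrate how alike the copies are. Zscan4b was at 3.33 and 1.66 RPKM in FH-Prdm14 and at most 0.134 RPKM in FH-Mtgr1, and Zscan4f at 21.6 and 13.1 RPKM against 1.19, 0.541 and 0.043 RPKM. The windows span 250 bases before to 50 bases after the RefSeq start in GRCm38.p6, at chr7:10905001-10905300 on the minus strand and chr7:11397665-11397964 on the plus strand. Capitals mark the 13 of 300 positions at which they differ, and 95.7% of positions are identical.
Zscan4b: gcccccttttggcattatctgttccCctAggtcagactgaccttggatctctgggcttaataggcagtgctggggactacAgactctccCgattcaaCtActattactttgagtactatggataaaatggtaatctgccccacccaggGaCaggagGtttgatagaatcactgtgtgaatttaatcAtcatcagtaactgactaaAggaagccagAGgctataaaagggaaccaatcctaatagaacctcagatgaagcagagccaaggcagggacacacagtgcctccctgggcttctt
Zscan4f: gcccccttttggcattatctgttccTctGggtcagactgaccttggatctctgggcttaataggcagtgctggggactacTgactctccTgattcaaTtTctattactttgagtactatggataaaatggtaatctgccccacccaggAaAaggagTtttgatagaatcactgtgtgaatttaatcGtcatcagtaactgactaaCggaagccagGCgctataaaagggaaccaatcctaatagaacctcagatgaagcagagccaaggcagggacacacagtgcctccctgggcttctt

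Several germ cell genes were higher as well. Of 12 tested genes of the primordial germ cell list, 7 were higher and 1 lower, with a median of 1.19. Of the 7, 1 passed the filter through FH-Prdm14 alone, which leaves 6 higher and 1 lower among 11 genes (median 1.05). In the covariate fit 6 of the 7 held, and 5 were called without either FH-Prdm14 library. Kit (chr5:75970941-76052747), the receptor for stem cell factor that germ cells need to survive, was at 67.6 and 67.9 RPKM in FH-Prdm14 and at 7.11, 8.58 and 4.96 RPKM in FH-Mtgr1. The difference was 3.24 ± 0.21 (SE, limma adjusted p = 1.93e-06) and 2.94 with the covariate. Tcl1, a coactivator of Akt, was at 50.8 and 54.7 RPKM against 7.25, 6.29 and 6.8 RPKM (2.87 ± 0.25, SE, limma adjusted p = 9.62e-06). Prdm1 (Blimp1), which with Prdm14 sets germ cells apart from somatic cells, was at 6.39 and 6.8 RPKM against 2.24, 1.65 and 1.96 RPKM (1.54 ± 0.17, SE, limma adjusted p = 5.34e-05). Nr6a1, a nuclear receptor of differentiating cells, was the gene that was lower, by -0.63 ± 0.20 (SE, limma adjusted p = 0.0215), and it was a call in only 1 of the 5 fits that left out a library, that without FH-Mtgr1 C3.

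The germline and meiosis list, with 24 tested genes, had 7 higher and 4 lower at a median of 0.05, of which 5 and 0 held in the covariate fit. The share of higher genes was close to that of all genes. Of the 7, 1 passed the filter through FH-Prdm14 alone, which leaves 6 higher and 4 lower among 23 genes. Without F10, 5 were higher and 0 lower, without G6, 3 and 3, and without FH-Mtgr1 C3 the median was -0.12. Dazl (chr17:50418719-50432924), an RNA-binding protein of germ cells, was at 13.4 and 11.2 RPKM against 2.05, 1.88 and 1.51 RPKM, and its difference of 2.47 ± 0.20 (SE, limma adjusted p = 6.5e-06) was 2.34 with the covariate. Piwil4, a Piwi protein that binds small RNAs in the male germline, was at 1.51 and 1.42 RPKM against 0.302, 0.393 and 0.0894 RPKM (fitted log2 difference 1.39). Mael, which acts in the same pathway, went the other way, at 29.4 and 25 RPKM against 47.5, 42.1 and 55.3 RPKM (-0.81 ± 0.19, SE, limma adjusted p = 0.00572), but -0.56 in the covariate fit (limma adjusted p = 0.219) and -0.70 without F10 (limma adjusted p = 0.0705).

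Genes of the formative and primed epiblast were split. Of 18 tested, 7 were lower and 3 higher, with a median of -0.40, and 6 of the 7 lower calls held in the covariate fit. Of the 7, 1 passed the filter through FH-Mtgr1 alone, which leaves 6 lower and 3 higher among 16 genes. Without F10, 5 were lower. Otx2 (chr14:49277354-49287319), the homeobox factor that leads cells out of the naive state, was at 15.5 and 15.4 RPKM in FH-Prdm14 and at 64.4, 71.0 and 64.2 RPKM in FH-Mtgr1. Both groups were tight, and the difference was -2.07 ± 0.22 (SE, limma adjusted p = 3.77e-05) and -2.01 with the covariate. Wnt8a, a ligand of the early epiblast, had 0 reads in G6 and 1 read in F10, and was at 1.1, 1.46 and 2.74 RPKM in FH-Mtgr1. The fitted difference of -2.05 depends on the pseudocount and is no bound. Pou3f1 (Oct6), at 14.9 and 9.86 RPKM against 21.1, 21.3 and 20.2 RPKM, did not pass (-0.76 ± 0.36, SE, limma adjusted p = 0.109) and was -2.05 in the covariate fit (limma adjusted p = 0.00167). Fgf5, the classic marker of the primed epiblast, failed the filter, at 0.622 and 0.497 RPKM against 0.782, 1.15 and 0.973 RPKM. Tcf15, a helix-loop-helix factor of cells about to leave the naive state, was higher, at 88.6 and 82.7 RPKM against 23.7, 23.3 and 18.9 RPKM (1.95 ± 0.32, SE, limma adjusted p = 0.000625), and 0.80 in the covariate fit (limma adjusted p = 0.0759). Lef1, a factor through which Wnt signals act, was higher in both fits, at 6.23 and 6.4 RPKM against 2.77, 2.54 and 1.83 RPKM (1.26 ± 0.24, SE, limma adjusted p = 0.00139).

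Of 11 tested genes of DNA methylation, 3 were lower and 3 higher, with a median of -0.26. The genes that were lower were the enzymes and the cofactor of de novo methylation, namely Dnmt3a, Dnmt3b and Dnmt3l. Dnmt3b (chr2:153475186-153513466) was at 22.8 and 16.6 RPKM against 116, 107 and 74.8 RPKM, a difference of -2.30 ± 0.32 (SE, limma adjusted p = 0.000187) that was -3.14 with the covariate. In wt serum it was at 149.5 RPKM, in wt 2i at 11.7 and 4.71 RPKM and in E294K at 182 and 198 RPKM. Dnmt3a was at 10.8 and 10.0 RPKM against 20.3, 23.4 and 18.6 RPKM (-0.96 ± 0.14, SE, limma adjusted p = 0.000227). Dnmt3l, which has no catalytic activity of its own, was at 53.1 and 49.7 RPKM against 93.3, 88.0 and 102 RPKM (-0.87 ± 0.16, SE, limma adjusted p = 0.00147). The genes that were higher were Dnmt1, which copies methylation at replication, the oxidase Tet1 and Zfp57, which protects imprints. Dnmt1 was at 76.0 and 74.8 RPKM against 43.4, 44.0 and 34.7 RPKM (0.89 ± 0.14, SE, limma adjusted p = 0.000557) and Tet1 at 47.4 and 48.3 RPKM against 19, 23.8 and 21.8 RPKM (1.14 ± 0.20, SE, limma adjusted p = 0.000788). With the wt serum library added to the reference, Tet1 was at 0.78 (limma adjusted p = 0.0932), and Zfp57 was no call without G6 (limma adjusted p = 0.0583). Uhrf1, the partner of Dnmt1, was at 113 and 113 RPKM against 129.7, 118 and 119.8 RPKM and did not pass (-0.12 ± 0.10, SE, limma adjusted p = 0.369).

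Of 13 tested genes of the LIF and Stat3 list, 8 were higher and 1 lower, with a median of 0.86, and 3 of the 8 held in the covariate fit. These 3 were Lifr, Klf4 and Tfcp2l1, and Klf4 and Tfcp2l1 are also members of the naive list described above. Without F10, 5 were higher. Lifr, the receptor subunit that binds LIF, was at 10.8 and 12.9 RPKM against 4.08, 4.48 and 3.54 RPKM (1.45 ± 0.20, SE, limma adjusted p = 0.000191). Tfcp2l1, a target of Stat3 in mESCs, was at 44.1 and 46.6 RPKM against 7.61, 9.47 and 15.3 RPKM (2.08 ± 0.28, SE, limma adjusted p = 0.000156). The kinase gene Pim3 was at 268 and 247 RPKM against 88.2, 83.6 and 82.8 RPKM (1.59 ± 0.33, SE, limma adjusted p = 0.00272), but 0.34 in the covariate fit (limma adjusted p = 0.401). Its relative Pim2 was lower, at 9.53 and 8.37 RPKM against 29.7, 23.3 and 18.1 RPKM (-1.33 ± 0.22, SE, limma adjusted p = 0.000648).

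Of 26 tested genes of FGF and ERK signalling, 7 were higher and 7 lower, with a median of 0.20. The share of higher genes was close to the 27.4% of all genes, of which 16.1% were lower. Of the 7 lower genes, 1 passed the filter through FH-Mtgr1 alone, which leaves 7 higher and 6 lower among 24 genes. None of the 7 higher calls and 3 of the 7 lower calls held in the covariate fit, without G6 2 were higher and 3 lower, and without F10 5 and 4. Mapk3, which encodes the kinase ERK1, was at 52.1 and 51.5 RPKM against 94.7, 95.5 and 81.2 RPKM (-0.80 ± 0.12, SE, limma adjusted p = 0.000413). Etv1, an ETS factor, was at 0.516 and 0.557 RPKM against 2.18, 2.43 and 2.59 RPKM (fitted log2 difference -1.48). Shc1, an adaptor of the receptors, was at 27.8 and 29.3 RPKM against 39.4, 41.8 and 42.8 RPKM (-0.52 ± 0.13, SE, limma adjusted p = 0.00579), and was no longer a call without G6 (limma adjusted p = 0.0671). Fgfr2, a receptor of FGF4, was at 2.13 and 1.35 RPKM against 2.44, 3.05 and 4.28 RPKM. Its difference of -0.74 ± 0.27 (SE, limma adjusted p = 0.0445) was a call in only 1 of the 5 fits that left out a library, that without FH-Mtgr1 A3.

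Of 21 tested Wnt genes, 9 were higher and 4 lower, with a median of 0.27. Without either FH-Prdm14 library 6 were higher and 3 lower, and the median was -0.04 without G6. Of the calls, 3 higher and 2 lower ones passed the filter through 1 group alone, which leaves 6 higher and 2 lower among 16 genes. Of the 9 higher members, 4 were ligands. Wnt7b was at 20.2 and 23.0 RPKM against 1.26, 1.61 and 2.63 RPKM (3.28 ± 0.37, SE, limma adjusted p = 5.19e-05), and Wnt5a at 2.47 and 3.35 RPKM against 0.0663, 0.119 and 0.144 RPKM (fitted log2 difference 2.48). With the covariate, Wnt7b was at 2.07 and Wnt5a at 2.33. Wnt6 was at 6.55 and 5.92 RPKM against 0.806, 0.798 and 1.44 RPKM (2.18 ± 0.35, SE, limma adjusted p = 0.000528) and 1.29 in the covariate fit (limma adjusted p = 0.0756). Rnf43, a ubiquitin ligase that removes Wnt receptors, was at 0.379 and 0.594 RPKM against 1.85, 1.74 and 2.39 RPKM (fitted log2 difference -1.34). Axin2, a general target of the pathway, was at 7.86 and 6.84 RPKM against 6.95, 7.61 and 5.63 RPKM and did not pass (0.13 ± 0.25, SE, limma adjusted p = 0.702).

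Of 18 tested Nodal and BMP genes, 6 were higher and 6 lower, with a median of 0.36. Of the calls, 1 higher and 1 lower passed the filter through 1 group alone, which leaves 5 and 5 among 16 genes. None of the 6 higher and 4 of the 6 lower calls held in the covariate fit, without G6 1 was higher and 3 were lower, without F10 1 and 4, and without FH-Mtgr1 C1 3 and 5. Bmp4, a ligand, was at 13.4 and 13.9 RPKM against 2.58, 2.96 and 4.34 RPKM (1.93 ± 0.33, SE, limma adjusted p = 0.000775) and 0.91 in the covariate fit (limma adjusted p = 0.111). Its target Id1 was at 15.2 and 17.4 RPKM against 147, 107 and 43.1 RPKM (-2.40 ± 0.39, SE, limma adjusted p = 0.000544) and thus lay lower where Bmp4 was higher. Foxh1 (chr15:76498714-76500378), the forkhead partner of Smad proteins in Nodal signalling, was among the 12 genes with the largest differences downward, at 5.36 and 4.51 RPKM against 57.7, 56.2 and 59.3 RPKM (-3.43 ± 0.20, SE, limma adjusted p = 1.05e-06). Nodal itself, at 42.4 and 41.9 RPKM against 25.5, 24.1 and 26.8 RPKM, did not pass (0.72 ± 0.29, SE, limma adjusted p = 0.0631).

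**Figure D4:**
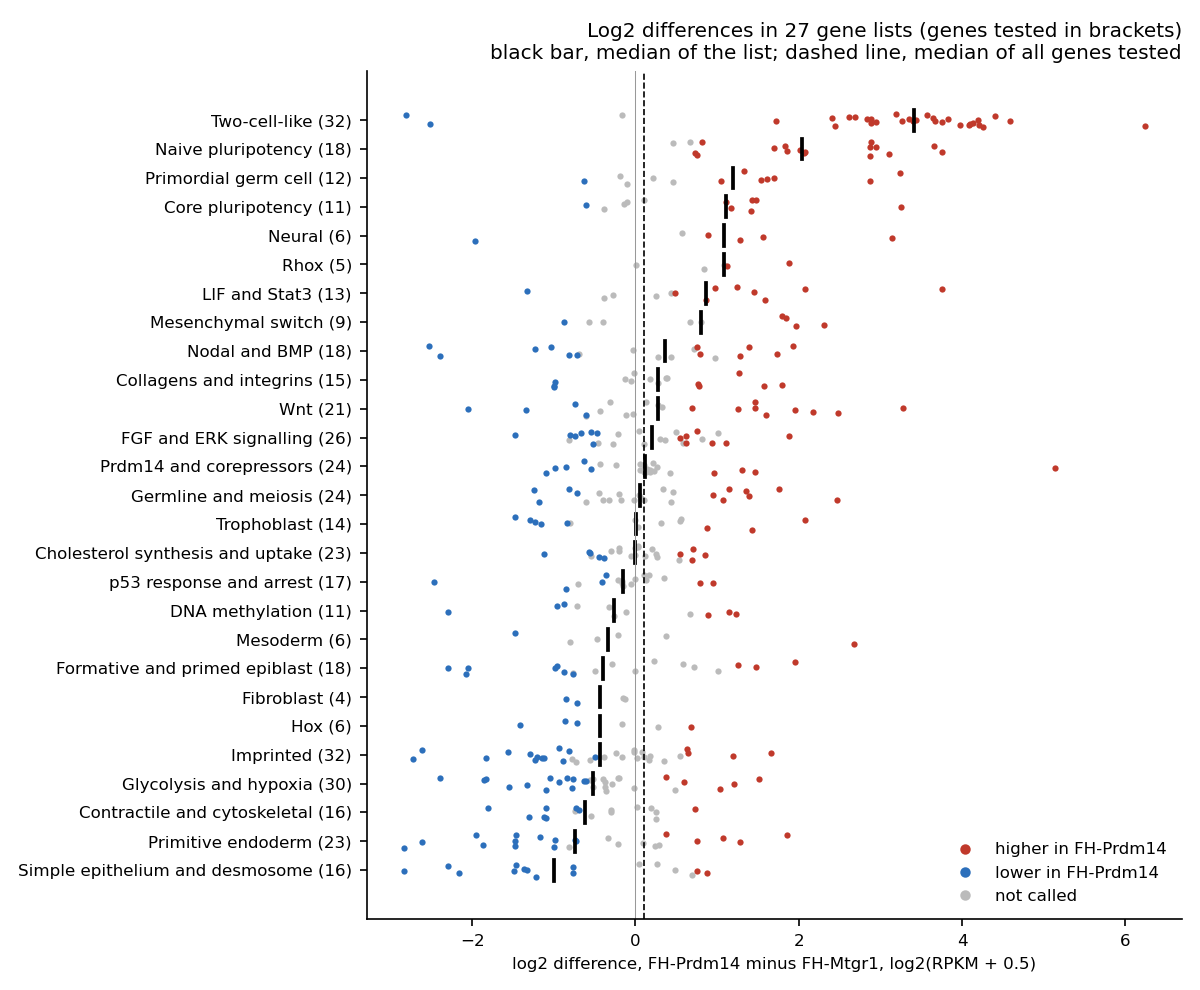
Log2 differences between FH-Prdm14 and FH-Mtgr1 of the tested genes in 27 gene lists, ordered by the median of the list (black bar), with the number tested in brackets and the median of all genes tested (0.11) as a dashed line. Red points are genes called higher, blue points genes called lower and grey points genes not called. The two-cell-like (median 3.41) and naive (2.04) lists stand at the top and the simple epithelium list (-1.0) at the bottom. Of the 32 two-cell-like genes tested, 20 passed the filter through FH-Prdm14 alone, and the median of the other 12 was 3.67.

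Genes of the primitive endoderm and of epithelia gave more lower than higher calls. Of 23 tested primitive endoderm genes, 12 were lower and 5 higher, with a median of -0.74, and 9 lower and 0 higher calls held in the covariate fit. Without F10, 7 were lower and 3 higher, and without G6 9 and 2. Of the calls, 3 lower and 1 higher passed the filter through 1 group alone, which leaves 9 lower and 4 higher among 19 genes. Among the lineage factors, Gata6, Sox17 and Hnf4a were not called, at -0.82, 0.09 and 0.24 on the log2 scale, but Gata6 was -1.09 without FH-Mtgr1 A3 (limma adjusted p = 0.0488). Gata4 was at 1.03 and 0.917 RPKM against 4.02, 5.61 and 5.21 RPKM (-1.87 ± 0.35, SE, limma adjusted p = 0.00145), and Pdgfra at 0.381 and 0.246 RPKM against 1.32, 1.73 and 2.3 RPKM (fitted log2 difference -1.47). Sparc (0.37), Krt19 (0.75) and the laminin genes Lama1 and Lamc1 were higher, none of them in the covariate fit. Sparc was a call in only 1 of the 5 fits that left out a library, that without FH-Mtgr1 C3, and Krt19 was no call without G6 (limma adjusted p = 0.127). The widest gap was that of Lama1, at 27.7 and 29.5 RPKM against 5.57, 8.7 and 8.68 RPKM (1.86 ± 0.42, SE, limma adjusted p = 0.0042) and 0.88 in the covariate fit (limma adjusted p = 0.327). Against wt serum the median of the list was 0.07 for FH-Prdm14 and 0.76 for FH-Mtgr1. The 14 tested trophoblast genes had 3 higher and 5 lower at a median of 0.01, and 1 and 2 without either FH-Prdm14 library. 2 of the 5 lower genes passed through FH-Mtgr1 alone. Gata2 was the highest of these, at 5.74 and 5.14 RPKM against 0.849, 1.09 and 0.775 RPKM (2.08 ± 0.32, SE, limma adjusted p = 0.000372), whereas Gata3 was at 0.533 and 0.323 RPKM against 1.6, 2.02 and 2.66 RPKM (fitted log2 difference -1.47).

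Of 16 tested genes of simple epithelium and desmosomes, 10 were lower and 2 higher, with a median of -1.0, and 8 of the 10 held in the covariate fit. Of the 10, 1 passed the filter through FH-Mtgr1 alone, which leaves 9 lower and 2 higher among 15 genes (median -0.77). Without either FH-Prdm14 library 8 or 7 were lower. Krt18 (chr15:101858647-101862457), a keratin of simple epithelia, was at 29.9 and 21.7 RPKM against 159, 176 and 231 RPKM (-2.84 ± 0.23, SE, limma adjusted p = 6.63e-06). The tight junction genes Cldn4, at 60.4 and 58.7 RPKM against 273, 229 and 414 RPKM (-2.30 ± 0.26, SE, limma adjusted p = 5.53e-05), and Cldn7, at 24.5 and 22.3 RPKM against 63.9, 63.1 and 73.2 RPKM (-1.49 ± 0.19, SE, limma adjusted p = 0.000127), were lower too. Of 9 tested mesenchymal genes, 4 were higher and 1 lower, with a median of 0.80, and 3 and 0 without either FH-Prdm14 library. Fn1, which encodes fibronectin, was at 184 and 183 RPKM against 53.4, 56.5 and 44.0 RPKM (1.84 ± 0.20, SE, limma adjusted p = 3.91e-05), and the zinc finger gene Zeb1 at 2.47 and 2.01 RPKM against 0.187, 0.195 and 0.203 RPKM (fitted log2 difference 1.97). Fn1 was also called in the covariate fit. Of the 4 higher mesenchymal genes, 1 passed the filter through FH-Prdm14 alone, which leaves 3 higher and 1 lower among 8 genes (median 0.73). Of 16 contractile and cytoskeletal genes, 7 were lower and 1 higher (median -0.62), and 4 and 0 of these held in the covariate fit. Without F10 2 were lower, without FH-Mtgr1 C1 4, and with wt serum added to the reference 2 (median -0.32). Cnn1, a calponin of smooth muscle, was at 3.37 and 2.05 RPKM against 11.3, 12.1 and 8.54 RPKM (-1.81 ± 0.32, SE, limma adjusted p = 0.000945).

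Few markers of other cell types passed the filter. The neural list had 4 of 6 tested genes higher and 1 lower (median 1.08), and 1 higher without either FH-Prdm14 library. 3 of the 4 passed the filter through FH-Prdm14 alone, and of the 3 other genes 1 was higher and 1 lower (median 0.57). Tubb3, a tubulin of neurons, was at 57.1 and 55.5 RPKM against 8.12, 7.28 and 3.51 RPKM (3.14 ± 0.55, SE, limma adjusted p = 0.00086) and 1.30 in the covariate fit (limma adjusted p = 0.124), whereas Nes, an intermediate filament of progenitors, was lower, at 6.18 and 4.78 RPKM against 26.3, 32.2 and 13.8 RPKM (-1.97 ± 0.27, SE, limma adjusted p = 0.000206). The other 8 members of this list, Pax6 among them, did not pass the filter and stayed at or below 1.03 RPKM. Of 6 tested mesoderm genes 1 was higher and 1 lower (median -0.34), and without either FH-Prdm14 library 0 and 1. Both passed the filter through 1 group alone, and of the 3 genes that did not, 0 were called. The gene that was higher was Gsc (chr12:105709419-105711537), a homeobox gene of the organizer, at 5.24 and 3.83 RPKM against 0.185, 0.321 and 0.335 RPKM (fitted log2 difference 2.68). Of 4 tested fibroblast genes 0 were higher and 2 lower (median -0.43), 1 of them without either FH-Prdm14 library, and the collagens Col1a2 and Col3a1 failed the filter. Of 15 collagen and integrin genes 5 were higher and 3 lower (median 0.27), with 0 and 2 holding in the covariate fit and 2 and 2 without G6 and 3 and 1 without F10.

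Among the 30 imprinted genes that did not pass the filter through 1 group alone, 12 were lower and 3 higher. Of all 32 tested imprinted genes, 13 were lower and 4 higher, with a median of -0.44. In the covariate fit 7 and 2 of these held, and without G6 7 were lower and 2 higher. Sgce (chr6:4624350-4697204), a sarcoglycan expressed from the paternal allele, was at 1.91 and 2.47 RPKM against 16.6, 18 and 17.0 RPKM (-2.73 ± 0.15, SE, limma adjusted p = 7.04e-07). H19, a noncoding RNA expressed from the maternal allele, was at 51.4 and 52.0 RPKM against 221, 268 and 555 RPKM (-2.62 ± 0.39, SE, limma adjusted p = 0.000316). Wt serum lay with FH-Prdm14 for H19, at 43.7 RPKM, and nearer to FH-Mtgr1 for Sgce, at 12.2 RPKM. Slc22a18, a transporter in the same chromosome region as H19, was higher, at 5.31 and 4.21 RPKM against 1.87, 2.03 and 1.45 RPKM (1.20 ± 0.20, SE, limma adjusted p = 0.00059). Of 30 Rhox homeobox genes of the X chromosome with a row, 5 passed the filter and 2 were higher (median 1.08), with 0 called without either FH-Prdm14 library, 1 without FH-Mtgr1 A3 or C1 and 3 without C3. Rhox7 was at 2.85 and 2.74 RPKM against 0.443, 0.527 and 0.24 RPKM (fitted log2 difference 1.88) and was the member that passed through FH-Prdm14 alone. Of 36 Hox genes 6 passed the filter, all at or below 7.85 RPKM, and 1 was higher and 3 lower (median -0.44). All 3 lower genes passed the filter through FH-Mtgr1 alone, and the other 3 genes had a median of 0.27. Without FH-Mtgr1 A3 or C1 the median was 0.02 and 0.12, and the fits that left out a library had 0 to 2 higher and 1 to 2 lower.

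Of the metabolic lists, that of glycolysis and hypoxia gave more lower than higher calls, most of which did not hold in the covariate fit. Of 30 tested genes of glycolysis and hypoxia, 13 were lower and 5 higher, with a median of -0.52, and 2 and 3 of these held in the covariate fit. Without G6, 8 were lower and 3 higher. Tpi1, a glycolytic isomerase, was at 213 and 242 RPKM against 565, 509 and 647 RPKM (-1.33 ± 0.18, SE, limma adjusted p = 0.000158), and Pfkp, a phosphofructokinase, was higher, at 111 and 120 RPKM against 43.8, 43.2 and 34.3 RPKM (1.51 ± 0.21, SE, limma adjusted p = 0.000189). Bnip3, a mitophagy protein induced by hypoxia, was at 38.4 and 44.9 RPKM against 152, 128 and 94.4 RPKM (-1.55 ± 0.29, SE, limma adjusted p = 0.00133) and -0.94 in the covariate fit (limma adjusted p = 0.13). Of 23 genes of cholesterol synthesis and uptake, 4 were higher and 5 lower (median 0.00), with 0 and 2 holding in the covariate fit. Of the 5 lower genes, 1 passed the filter through FH-Mtgr1 alone. The 5 fits that left out a library each had 0 to 2 higher and 1 to 6 lower, with 0 and 1 without G6. Of 17 genes of the p53 response, 2 were higher and 4 lower (median -0.15), with 1 and 1 without either FH-Prdm14 library and a median of 0.08 without FH-Mtgr1 C3. Trp53, which encodes p53, was at 141 and 139.6 RPKM against 73.3, 70.6 and 72.9 RPKM (0.95 ± 0.17, SE, limma adjusted p = 0.0011) and 0.57 in the covariate fit (limma adjusted p = 0.111). Its target Cdkn1a, at 62.1 and 66.5 RPKM against 77.9, 75.4 and 107 RPKM, was -0.41 ± 0.16 (SE, limma adjusted p = 0.05), at the threshold.

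Of 24 tested genes for Prdm14, the ETO proteins and their corepressors, 4 were higher and 5 were lower, with a median of 0.12. Prdm14 is among the 4, and its difference was set by the design. Without G6 3 were higher and 3 lower. Rbbp7, a histone chaperone of several corepressor complexes, was at 67.8 and 68.3 RPKM against 148, 144 and 144 RPKM (-1.09 ± 0.16, SE, limma adjusted p = 0.000272), and Tbl1x, a subunit of the NCoR complex, at 17.5 and 17.6 RPKM against 36.4, 38.9 and 31.0 RPKM (-0.99 ± 0.15, SE, limma adjusted p = 0.000343). Both were called in the covariate fit, at -0.64 and -0.86. Phf19, a Polycomb accessory protein, was higher, at 7.34 and 7.17 RPKM against 1.61, 1.9 and 3.82 RPKM (1.47 ± 0.33, SE, limma adjusted p = 0.00426). The deacetylase genes Hdac1 and Hdac2 and the demethylase gene Kdm1a did not pass, with differences between 0.11 and 0.18.

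Among the 12 genes with the largest differences in each direction were some outside all of these lists. Khdc3 (Filia), a protein of the egg and early embryo, was at 184 and 215 RPKM in FH-Prdm14 and at 3.27, 4.86 and 6.06 RPKM in FH-Mtgr1 (5.29 ± 0.44, SE, limma adjusted p = 7.6e-06). It was at 131 and 76.6 RPKM in wt 2i and 12.2 RPKM in wt serum. Prmt8, an arginine methyltransferase, was at 12.3 and 17.1 RPKM against 0.15, 0.117 and 0.26 RPKM (fitted log2 difference 4.48), and at 23.6 and 17.5 RPKM in wt 2i. Msln, which encodes mesothelin, was at 16 and 19.3 RPKM against 0.24, 0.201 and 0.111 RPKM, the last from 3 reads (fitted log2 difference 4.73). In the covariate fit Khdc3, Prmt8 and Msln were at 4.25, 4.27 and 3.80. Downward, Klf6 (chr13:5860735-5869639), a zinc finger factor, was at 4.54 and 5.36 RPKM against 46.1, 50.1 and 39.3 RPKM (-3.06 ± 0.22, SE, limma adjusted p = 3.2e-06). Car4, a carbonic anhydrase, was at 7.6 and 5.0 RPKM against 59.6, 58.1 and 56.7 RPKM (-3.13 ± 0.42, SE, limma adjusted p = 0.000149). Rmrp, Rpph1, Rprl3 and the histone gene Hist1h1d were also in this group, and none of these 4 kept a negative difference past the threshold in the covariate fit.

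Fam111a (chr19:12620230-12664258 in mm9), a protease gene that limits viral replication, was among the 12 genes with the largest differences downward, at 0.706 and 0.584 RPKM against 13.6, 14.3 and 11.7 RPKM (fitted log2 difference -3.58, and -2.48 with the covariate). Its promoter window holds the letters GGTCTCTAA, the published core of the Prdm14 motif, which was searched on both strands in the RefSeq promoter windows of GRCm38.p6 (250 bases before to 50 after the start). Of 9471 tested genes with a window, 24 hold it (0.253%), as do 84 of all 32851 windows (0.256%). It was present for 3 of 2647 genes called higher (0.113%), 6 of 1514 called lower (0.396%) and 15 of 5310 not called (0.282%). The 3 with the largest differences downward are printed to show where the letters lie. Capitals mark the match, which starts 154 bases before the start on the opposite strand in Fam111a (chr19:12573260-12573559, plus strand), 39 bases before it on the opposite strand in Hmgxb4 (chr8:75015972-75016271, plus strand) and 49 bases before it on the strand of the gene in Hipk4 (chr7:27523011-27523310, plus strand).
Fam111a: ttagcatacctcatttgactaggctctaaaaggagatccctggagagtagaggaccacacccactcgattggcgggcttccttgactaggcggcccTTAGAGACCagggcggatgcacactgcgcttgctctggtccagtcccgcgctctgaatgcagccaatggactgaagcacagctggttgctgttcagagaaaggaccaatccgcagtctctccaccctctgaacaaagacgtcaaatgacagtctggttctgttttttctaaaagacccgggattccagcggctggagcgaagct
Hmgxb4: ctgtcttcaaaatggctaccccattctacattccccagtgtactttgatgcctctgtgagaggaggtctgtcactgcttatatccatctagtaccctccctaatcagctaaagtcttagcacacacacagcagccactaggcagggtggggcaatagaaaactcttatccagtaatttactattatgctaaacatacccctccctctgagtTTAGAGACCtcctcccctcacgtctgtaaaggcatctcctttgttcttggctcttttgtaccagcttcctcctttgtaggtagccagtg
Hipk4: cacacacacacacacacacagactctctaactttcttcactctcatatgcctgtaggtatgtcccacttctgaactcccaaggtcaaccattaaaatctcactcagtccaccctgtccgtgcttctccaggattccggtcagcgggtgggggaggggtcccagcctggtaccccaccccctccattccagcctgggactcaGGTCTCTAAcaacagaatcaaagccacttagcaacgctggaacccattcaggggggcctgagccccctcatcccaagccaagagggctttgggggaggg
Hmgxb4, a high mobility group protein gene, was at 10.3 and 10.8 RPKM against 41.2, 38.0 and 23.0 RPKM, with a log2 difference of -1.60. Hipk4, a kinase gene, was at 0.871 and 1.09 RPKM against 3.24, 3.38 and 3.81 RPKM, with a log2 difference of -1.43. A match in these letters is a description of the window and not a binding site. The authors place Prdm14 binding mainly at distal regulatory elements, which promoter windows do not cover. The shares among called genes rest on few genes, and no difference between them was tested.

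The called genes were also read in comparisons that share no library with this one. In wt 2i against wt serum, 9.32% of the genes tested were higher and 13.9% lower. Of the 3494 genes higher in FH-Prdm14, 558 (16%) were higher in 2i and 266 (7.61%) lower, and of the 2053 genes lower in FH-Prdm14, 535 (26.1%) were lower in 2i and 95 (4.63%) higher. In all, 1093 genes were called the same way in both comparisons, 19.7% of the calls between the rescue groups and 37.0% of the 2958 calls between 2i and serum, and 361 genes the opposite way. Khdc3, Kit, Tcl1 and Dazl were among the genes higher in both. The 3494 and 2053 calls include 492 and 213 genes that passed the filter through 1 group alone. The overlaps without these genes were not counted. Gsc was at 28.3 and 9.11 RPKM in 2i. The covariate fit called 611 genes the same way, and the fits without G6 or F10 576 and 578. The 2i libraries differed from each other in the 3 noncoding RNAs, at 169 and 8169 RPKM.

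In Prdm14-/- against wt serum, 11.3% of genes were higher and 14.2% lower. Of the genes higher in FH-Prdm14, 289 (8.27%) were lower in Prdm14-/- and 461 (13.2%) higher, and of the genes lower in FH-Prdm14, 206 (10.0%) were higher in Prdm14-/- and 452 (22.0%) lower. More genes were thus called the same way (913) than the opposite way (495). The Prdm14-/- libraries, from the same clones G6 and F10, were as low in the 3 noncoding RNAs as the FH-Prdm14 libraries, at 23.6 and 22.6 RPKM, and the covariate fit called 150 genes the opposite way and the fits without G6 or F10 229 and 203. Between the parental Prdm14-/- and Mtgr1-/- libraries 21.5% of genes were higher and 14.0% lower. Of the genes higher in FH-Prdm14, 1050 (30.1%) were also higher in the parental Prdm14-/- libraries and 341 (9.76%) lower, and of the genes lower, 423 (20.6%) were also lower and 324 (15.8%) higher. The 1473 genes that differed the same way make up 26.6% of the calls, 518 did so in the covariate fit, and 633 and 721 without G6 or F10. Prdm14 itself did not differ between the parental lines (log2 difference -0.04, limma adjusted p = 0.942). The parts of the transgene and of the parental clones in these genes cannot be told apart.

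By chromosome, the median log2 difference was between -0.18 and 0.27. Chromosome 8 had the lowest median, -0.18 over 642 genes, with 22.9% of its genes lower and 16.7% higher, and it was the one on which FH-Mtgr1 libraries stood apart from each other. Its genes deviated from the median of the 5 libraries by 0.20 in A3, 0.20 in C1 and -0.20 in C3, and by -0.03 and -0.07 in G6 and F10. For a gene whose groups do not overlap, this median is the value of an FH-Mtgr1 library. The deviations of FH-Mtgr1 libraries are thereby held small, and lesser differences between them on other chromosomes may not show. The next lowest was the X chromosome, at -0.13 over 397 genes, and the highest was chromosome 17, at 0.27 over 600 genes.

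**Figure D5:**
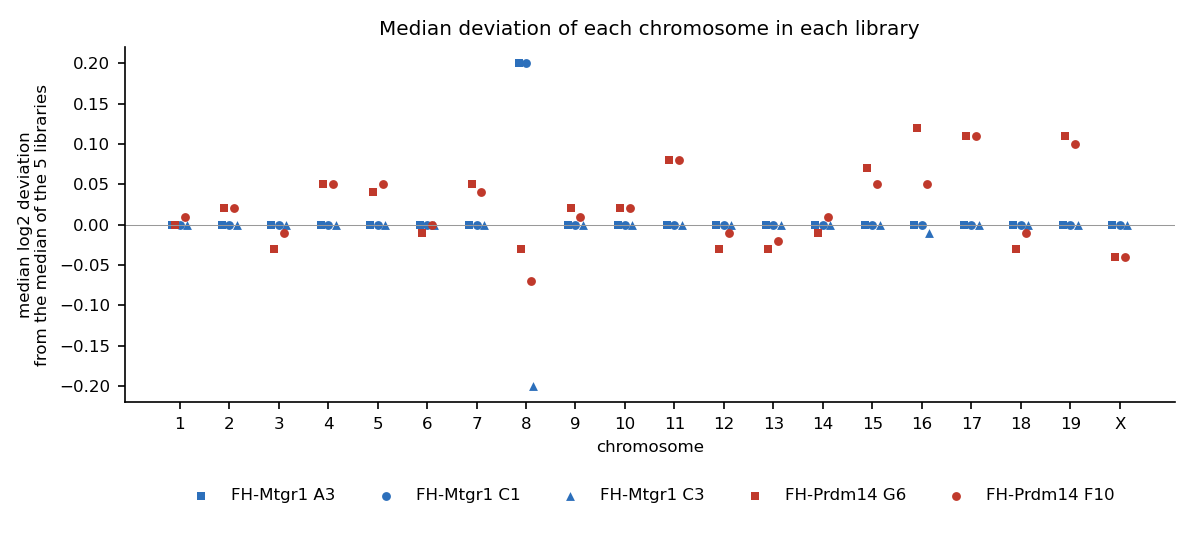
Median log2 deviation of the tested genes on each chromosome from the median of the 5 libraries, with 1 point per library. FH-Mtgr1 A3 and C1 stand at 0.20 and C3 at -0.20 on chromosome 8, and no library deviates by more than 0.12 on any other chromosome.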

How the data were processed

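RNA was extracted with Trizol, enriched by 2 rounds of oligo-dT selection, fragmented and copied with random hexamers, and unstranded libraries were read single-end on 2 instruments with 2 read lengths. Which library had which was not given in the sources used here. For alignment the authors used Tophat and the mm9 genome. Counts per RefSeq gene came from HTSeq, and the authors tested them with DESeq2. They deposited RPKM values per gene and library, with gene lengths. The deposited RPKM values of all 15 RNA-seq libraries were fitted as log2(RPKM + 0.5) with limma 3.58.1 (R 4.3.3) by condition, with no other covariate and Benjamini-Hochberg adjustment over the 12757 genes tested. Other steps used Python 3.11.15, numpy 2.4.6, scipy 1.17.1 and pandas 2.3.3. Since the values are RPKM, no count model was fitted as the main test. Reads could be computed back (100.0% of nonzero values within 0.05 of a whole number). They gave 12847489 and 14460382 reads for FH-Prdm14 and 13793727, 21218414 and 12729580 for FH-Mtgr1. Data were also simulated over the same 12757 genes, with a fixed spread, no library effect and changes placed only in genes with ample reads. There 89% of genes changed 2-fold and 100% of those changed 4-fold were recovered, with 12 false calls. These shares do not describe the real libraries, which differed by more than sampling noise and in the noncoding RNAs.

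Named genes were the 12 largest called differences in each direction with groups that did not overlap and a minimum mean level, and members of gene lists. Members and lists were chosen with earlier results of these data known. Nanog, Klf5, Dux, Zscan4b, Zscan4f, Tdpoz4, Gm2022, Hmgxb4 and Hipk4 were named after their values were seen. The summed noncoding RNA covariate was also chosen after seeing the data. Gene positions are those of mm9, and promoter sequences are from RefSeq (GRCm38.p6). ChIP-seq samples were not analysed here. Some genes are not reported here.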

Additional observations from a re-analysis of the deposited data

How the results depend on the processing

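The number of genes called depended most on the libraries and on the noncoding RNA covariate. With a mean of at least 5 RPKM over the 5 libraries, 2220 genes were higher, and 695 called genes moved the same way in wt 2i against wt serum. Fewer genes were tested in that setting. With the covariate, which was chosen after seeing the data, 1019 genes were higher and 769 lower, 611 moved the same way in wt 2i, 150 moved the opposite way in Prdm14-/- against wt serum, and 518 differed the same way between the parental clones. The cause was not tested. Leaving out 1 library gave 1467 to 3035 genes higher and 874 to 1807 lower, 576 to 1119 the same way in wt 2i, 203 to 514 the opposite way in Prdm14-/-, and 633 to 1411 the same way between the parental clones. The lone FH-Prdm14 library was then assumed to vary like the other groups. Under the other pseudocounts, scaling, filter, GC content, gene length, voom, 5-library and added wt serum settings, the counts stayed within 1.5 times. Of 106 tested genes in the text, 73 were tested in every setting. Of these, 58 kept their direction and call in every setting but the covariate fit, and 47 in every setting. With the covariate, Rpph1 (0.35), Rprl3 (0.55) and Hist1h1d (1.34) changed sign. In the fit of only the 5 libraries Dppa3, Tet2, Nodal, Pou3f1 and Gata6 were called as well. No paired analysis was possible because the FH-Prdm14 and FH-Mtgr1 libraries come from different parental clones and share none. The planned edgeR and DESeq2 alternatives were not run, since the deposited values are RPKM. Of such methods only voom was run, on the reads computed back. 2 libraries in one group and 3 in the other limit the precision.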
